A study of Mus musculus with 2 samples.

Results

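The data describe 8 genes that mark where along a brain vessel an endothelial cell sits, followed in the endothelial cells of the mouse hippocampus. They were taken as a named set from the 24130 genes of the matrices: Gkn3, Bmx, Sema3g, Hey1 and Vegfc for arteries, Mfsd2a for capillaries, and Slc38a5 and Nr2f2 for veins. Expression was measured by droplet single-cell RNA sequencing, which counts unique molecular identifiers (UMIs), in 2 libraries from male C57BL/6 mice. Their age is 6 months by the labels, although the sample titles speak of an aged brain. Mice of the control library had received saline. For the other library, labelled EMF+AuNPs and written EMF_AuNPs here, gold nanoparticles were injected into the hippocampus and the mice stayed between a pair of Helmholtz coils for 3 weeks. Whether the saline mice were also kept between coils is unclear from the labels, and the number of animals behind each library is not given in the sources used here. With 1 library per group there is no replicate check and no test: differences between the libraries are those of these libraries, and all intervals (95%) cover counting error only.

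Brain endothelial cells change their expression in a graded way from arteries over capillaries to veins, which is called zonation. Arterial identity is known to need Notch signalling, with ligands such as Dll4 and Jag1 and target factors such as Hey1, while the nuclear receptor Nr2f2 holds venous identity and represses the arterial programme. The capillary bed carries most of the transport across the blood-brain barrier, and Mfsd2a, a carrier of lysophospholipids with long-chain omega fatty acids, is known to restrain vesicle transport there. Among the other genes, Gkn3 encodes a secreted gastrokine known as a marker of brain arteries. Bmx is a tyrosine kinase of the Tec family found in arterial endothelium, Sema3g a secreted semaphorin, Vegfc a growth factor for the receptor Flt4, and Slc38a5 an amino acid carrier for glutamine and related amino acids.

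The start sites of these genes show how unlike their upstream sequences are. Promoter windows of 300 bases, from 250 before to 50 after the start, were taken from RefSeq on GRCm38.p6 (the build called mm10 elsewhere) and found for 7 of the 8 genes. Below are 4 of them, written 5′ to 3′ along the gene: Gkn3, the arterial gene with the most UMIs, at chr6:87388886-87389185 (minus strand), Bmx at chrX:164258144-164258443 (minus strand), Sema3g at chr14:31217623-31217922 (plus strand), and the venous Slc38a5 at chrX:8271131-8271430 (plus strand). Capitals mark matches to the motif TGGGAA, which the Notch factor RBPJ binds (read as TTCCCA on the other strand), and to the E-box CACGTG, a motif bound by factors of the Hey family.
Gkn3: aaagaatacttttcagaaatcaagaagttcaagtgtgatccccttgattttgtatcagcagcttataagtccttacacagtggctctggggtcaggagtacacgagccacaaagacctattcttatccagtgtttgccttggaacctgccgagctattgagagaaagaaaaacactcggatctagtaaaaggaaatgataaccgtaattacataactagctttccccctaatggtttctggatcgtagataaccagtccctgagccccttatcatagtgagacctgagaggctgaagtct
Bmx: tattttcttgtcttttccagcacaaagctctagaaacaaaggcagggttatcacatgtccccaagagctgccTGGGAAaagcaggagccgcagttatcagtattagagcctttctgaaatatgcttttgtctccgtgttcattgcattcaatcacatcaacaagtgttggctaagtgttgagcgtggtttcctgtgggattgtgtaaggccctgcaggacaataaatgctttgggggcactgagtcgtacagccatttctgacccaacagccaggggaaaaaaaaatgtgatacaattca
Sema3g: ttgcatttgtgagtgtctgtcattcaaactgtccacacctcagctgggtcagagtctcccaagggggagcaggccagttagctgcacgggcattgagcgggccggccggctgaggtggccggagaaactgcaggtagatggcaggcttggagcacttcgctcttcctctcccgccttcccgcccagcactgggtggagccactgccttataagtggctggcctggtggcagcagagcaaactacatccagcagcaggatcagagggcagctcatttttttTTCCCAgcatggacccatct
Slc38a5: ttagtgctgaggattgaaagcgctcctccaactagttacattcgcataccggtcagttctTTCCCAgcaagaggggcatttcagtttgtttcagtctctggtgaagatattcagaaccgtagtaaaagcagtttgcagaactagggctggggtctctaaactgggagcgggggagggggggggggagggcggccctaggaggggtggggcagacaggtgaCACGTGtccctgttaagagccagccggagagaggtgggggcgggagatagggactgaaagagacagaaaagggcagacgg
The RBPJ letters stood in 3 of the 7 windows (Bmx, Sema3g and Slc38a5), 2 arterial genes and 1 venous gene, and in 25.6% of the 32851 windows of all genes. The E-box stood in 1 window, that of Slc38a5, against 7.15% of all windows. A SOX motif (ACAATG, 12.6% of all windows), a FOX motif (TGTTTAC, 3.65%) and an ETS motif (CCGGAAG, 8.86%) had no match in the 7 windows on either strand. A match describes the letters only and shows neither binding nor its absence. All 8 are protein-coding genes. Of those not shown, Hey1 lies at chr3:8663359-8667256, Vegfc at chr8:54077606-54187096, Mfsd2a at chr4:122946850-122961188 and Nr2f2 at chr7:70351944-70366735 (gene bodies in GENCODE on GRCm38). GC content ran from 42.7% in the Gkn3 window to 70.3% in that of Vegfc, around a median of 52.7% for all windows.

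The control library held 21583 barcodes and 51091452 UMIs, and the EMF_AuNPs library 7003 barcodes and 19544686 UMIs, of which 21425 and 6996 cells passed a floor of 500 UMIs and 250 genes. The libraries shared 38 barcodes, 4 of them among gated endothelial cells. Endothelial cells were gated by 8 markers that include none of the zonation genes, and 2720 control cells (12.7%) and 1031 EMF_AuNPs cells (14.7%) entered the gate. Of the 8 markers, Cldn5, a tight junction protein, had a UMI in 99.1% and 99.3% of the gated cells, and the receptor tyrosine kinase gene Tie1, the least often seen, in 25.9% and 33.7%. Flt1, a VEGF receptor, was the 1 marker in a smaller share of the EMF_AuNPs cells (97.5% and 93.1%), at 2911 and 1758 CPM. The EMF_AuNPs cells were deeper, with a median of 2351 UMIs against 1698.5. Shares of positive cells are therefore given in cells thinned at random to 1000 UMIs each, which kept 2377 control and 994 EMF_AuNPs cells and left out 343 and 37 shallower ones. Levels are UMIs of a gene over all UMIs of the gated cells, scaled to a total of 1000000 (CPM), and are compared between groups of cells, not between genes.

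All 8 genes were found in gated endothelial cells of both libraries. Gkn3 had 1538 UMIs in 344 cells of the control and 797 in 146 cells of the EMF_AuNPs library, a level of 252 CPM (interval 239 to 264) and 258 CPM (240.4 to 277). The Bmx levels were 60.2 CPM (54.2 to 66.7) with saline and 46.3 CPM (39.0 to 54.5) with particles and field. For Sema3g, the gene with the fewest UMIs (109 and 37), the levels were 17.8 CPM (14.6 to 21.5) and 12.0 CPM (8.43 to 16.5). The 3 genes differ in how their UMIs lie over cells. Positive cells held on average 4.47 and 5.46 UMIs of Gkn3 with up to 61 and 57 in a cell, and 42 and 23 cells had at least 10, whereas Sema3g was a single UMI in 89.8% and 90.9% of its positive cells. Bmx lay between these, at 1.58 and 1.54 UMIs per positive cell.

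Hey1 and Vegfc complete the arterial set. Hey1 had 289 UMIs in 235 cells of the control and 246 in 175 cells of the EMF_AuNPs library. These correspond to levels of 47.3 CPM (42.0 to 53.0) and 79.6 CPM (70.0 to 90.2). Vegfc stood at 21.9 CPM (18.4 to 26.0) and 24.6 CPM (19.4 to 30.8). Mfsd2a, the capillary gene, was in more cells than any of the others, 963 (35.4%) and 543 (52.7%) before thinning, at 232 CPM (219.7 to 244) and 320.4 CPM (301 to 341). Of the venous genes, Slc38a5 stood at 126 CPM (118 to 136) and 125 CPM (113 to 138), and Nr2f2 at 40.9 CPM (36.0 to 46.3) and 34.96 CPM (28.7 to 42.2). The intervals of both libraries do not overlap for Hey1 and Mfsd2a, and they overlap, though narrowly for Bmx, for the other 6. The share of all genes without overlap was not counted, so this says nothing particular about these genes.

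Most of these genes were low outside the endothelium, but Hey1, Mfsd2a and Nr2f2 were not. Microglia and oligodendrocytes served as a measure of free RNA: the levels of Gkn3 were 9.86 and 3.95 CPM in gated microglia and 3.56 and 2.90 CPM in gated oligodendrocytes. In thinned cells, Gkn3 had a UMI in 8.92% of control endothelial cells against 0.860% of control microglia, and in 8.85% against 0.268% in the EMF_AuNPs library. Sema3g, Bmx and Vegfc stood at most at 7.05 CPM in the other gated classes of at least 50 cells. Hey1, which astrocytes also express, stood at 26.6 and 51.1 CPM in gated astrocytes, and Mfsd2a at 60.7 and 100.4 CPM. In the 110 gated ependymal cells of the control, Hey1 stood at 47.6 CPM (31.4 to 69.3), near its level in control endothelial cells. Nr2f2 had its highest levels outside the endothelium, 200.4 and 304 CPM in pericytes and 190.0 and 274 CPM in smooth muscle cells. Both are mural cells, which wrap the vessel wall, and their markers are given below beside the results that rest on Nr2f2. Neurons, at 96.7 and 155 CPM, and choroid plexus cells, at 51.4 and 61.5 CPM, were also above the endothelial Nr2f2 levels.

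**Figure D1:**
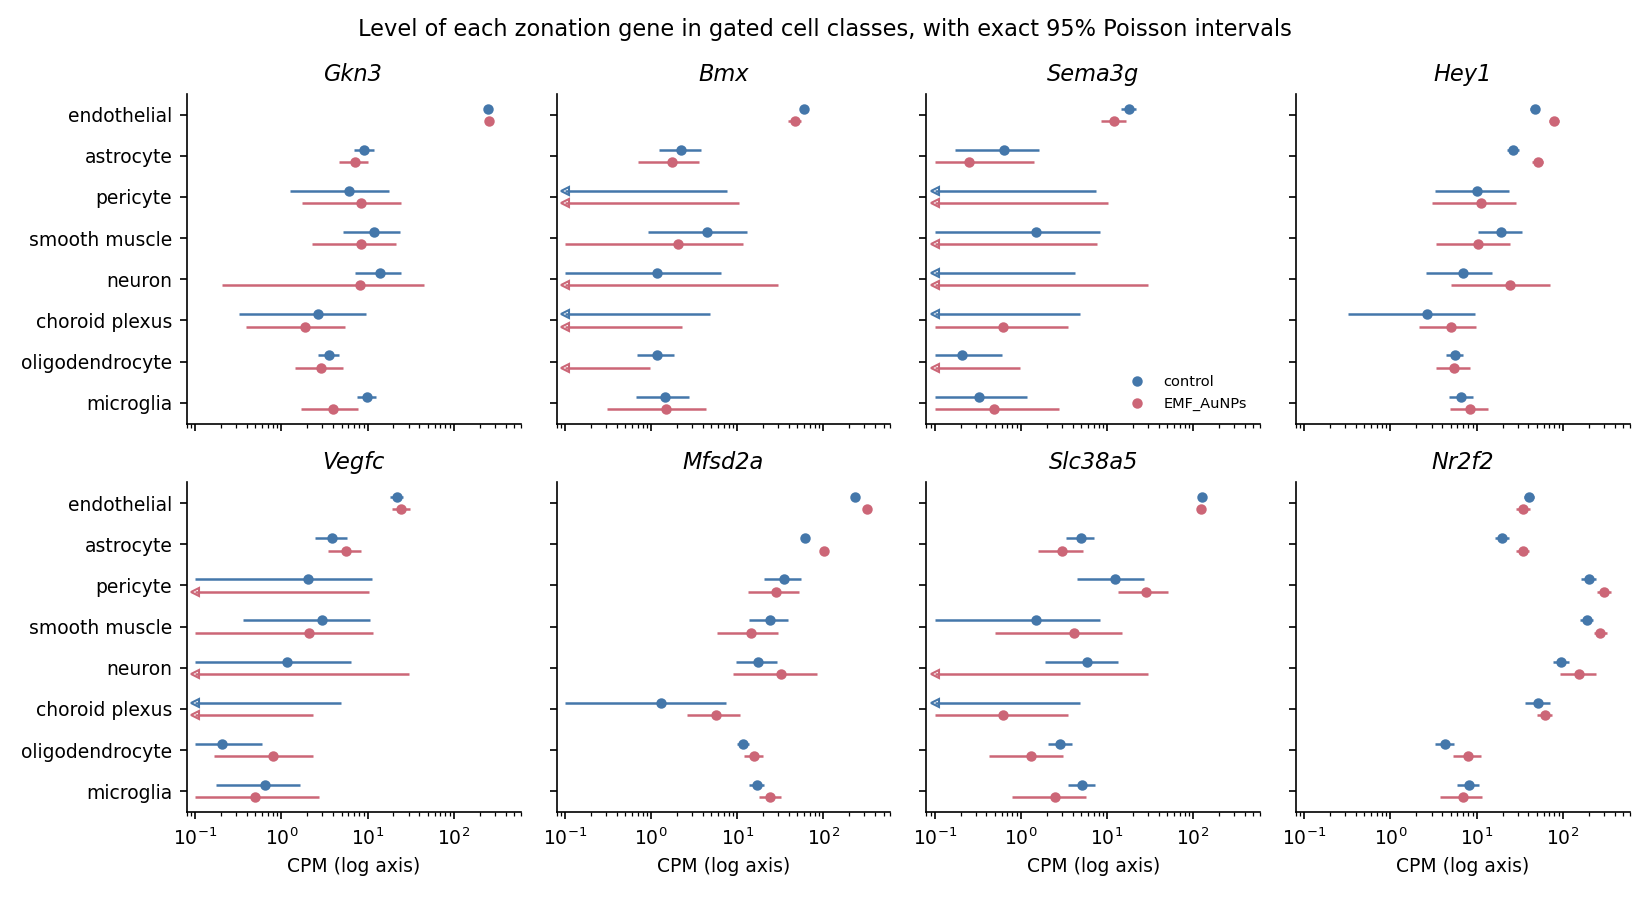
Level (CPM, log axis) of each of the 8 genes in gated cell classes of the control (blue) and EMF_AuNPs (red) libraries, with exact 95% Poisson intervals; open triangles at the left edge are classes with a count of 0. Gkn3 stands at 252 and 258 CPM in endothelial cells and far lower elsewhere, while Nr2f2 reaches 200.4 and 304 CPM in pericytes. Ependymal cells are not drawn.

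Between the libraries, the arterial, capillary and venous genes did not move as blocks. Hey1 was the 1 gene of the 8 at least 1.5-fold higher in EMF_AuNPs endothelial cells, and none was at least 1.5-fold lower. Over the 10372 genes with a mean of at least 5 CPM in these cells, 11.3% were at least 1.5-fold higher and 6.86% lower, so a count of 1 in 8 is near the background. The Hey1 log2 ratio was 0.74 (0.50 to 1.00), higher than in 94.0% of those genes. Mfsd2a followed at 0.47 (0.35 to 0.59), or 1.38-fold, higher than in 82.9% of the genes. Gkn3 (0.04, -0.09 to 0.16), Slc38a5 (-0.01, -0.19 to 0.16), Vegfc (0.16, -0.26 to 0.58) and Nr2f2 (-0.22, -0.57 to 0.11) had intervals that include 0. Bmx (-0.37, -0.67 to -0.10) and Sema3g (-0.54, -1.15 to -0.02) lay on the lower side. The arterial genes thus ran from -0.54 to 0.74, and the median of the 8 was 0.01 beside 0.07 for all genes.

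The shares of positive cells at equal depth gave the same picture for Hey1 and Mfsd2a. Hey1 had a UMI in 4.33% of thinned control cells and 7.85% of thinned EMF_AuNPs cells, 3.51 points more (1.76 to 5.50). Mfsd2a had a UMI in 21.3% and 30.0%, 8.69 points more (5.45 to 12.0). Since 1 draw of 1000 UMIs varies, the exact mean over all draws was added: it was 4.42% and 7.18% for Hey1, 2.75 points apart, and 21.0% and 27.6% for Mfsd2a, 6.60 points apart. Vegfc was 1.15 points more frequent in the EMF_AuNPs cells (0.20 to 2.37) in the draw, but 0.25 points over all draws (1.54% and 1.79%), and its sign turned when other depths or gates were used. Gkn3, Bmx, Sema3g, Slc38a5 and Nr2f2 differed by -1.03 to -0.07 points, each with an interval that includes 0. Without thinning the Mfsd2a shares were 17.3 points apart and those of Hey1 8.33 points, values that include the difference in depth.

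Hey1 and Mfsd2a were higher in the EMF_AuNPs library also where the cells were split by the other zonation genes. In cells with another arterial gene, Hey1 stood at 91.6 CPM in control and 159 CPM in EMF_AuNPs cells, and in cells with none at 32.3 and 51.0 CPM. Mfsd2a stood at 201 and 318 CPM in cells with an arterial gene, and at 245 and 322 CPM in cells without. Both genes were also higher in gated astrocytes of the EMF_AuNPs library, with a log2 ratio of 0.92 (0.64 to 1.25) for Hey1 and 0.72 (0.52 to 0.93) for Mfsd2a, as was Nr2f2 there (0.77, 0.44 to 1.17). In gated microglia Mfsd2a was at 0.50 (0.005 to 1.03), Hey1 at 0.30 (-0.57 to 1.19) and Nr2f2 at -0.20 (-1.20 to 0.65). The Nr2f2 ratio was 0.60 (0.19 to 1.01) in pericytes, 0.52 (0.16 to 0.89) in smooth muscle cells and 0.75 (0.20 to 1.52) in oligodendrocytes. In oligodendrocytes Mfsd2a was at 0.38 (-0.04 to 0.85) and Hey1 at -0.02 (-0.79 to 0.69). The share of all genes higher in these classes was not counted. The summed level of 8 astrocyte markers within the gated endothelial cells was 2812 CPM in control and 2809 CPM in EMF_AuNPs cells. This sum includes S1pr1, which the gate left out. Aqp4, another of the 8, was higher in EMF_AuNPs cells in each zone class described below. In Mfsd2a only cells it stood at 36.1 and 53.9 CPM (39 and 37 UMIs). The other astrocyte markers are not given singly here. Other marker sums in the gated endothelial cells did differ: 801 and 1782 CPM for microglia, 650.4 and 1227 CPM for oligodendrocytes and 8725 and 5131 CPM for choroid plexus, each with all 8 markers detected. Those of pericytes were 788 and 613 CPM, and the 6 red blood cell markers, the sum with the widest gap in CPM, 17934 and 26117 CPM. Their part in the differences was not tested.

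**Figure D2:**
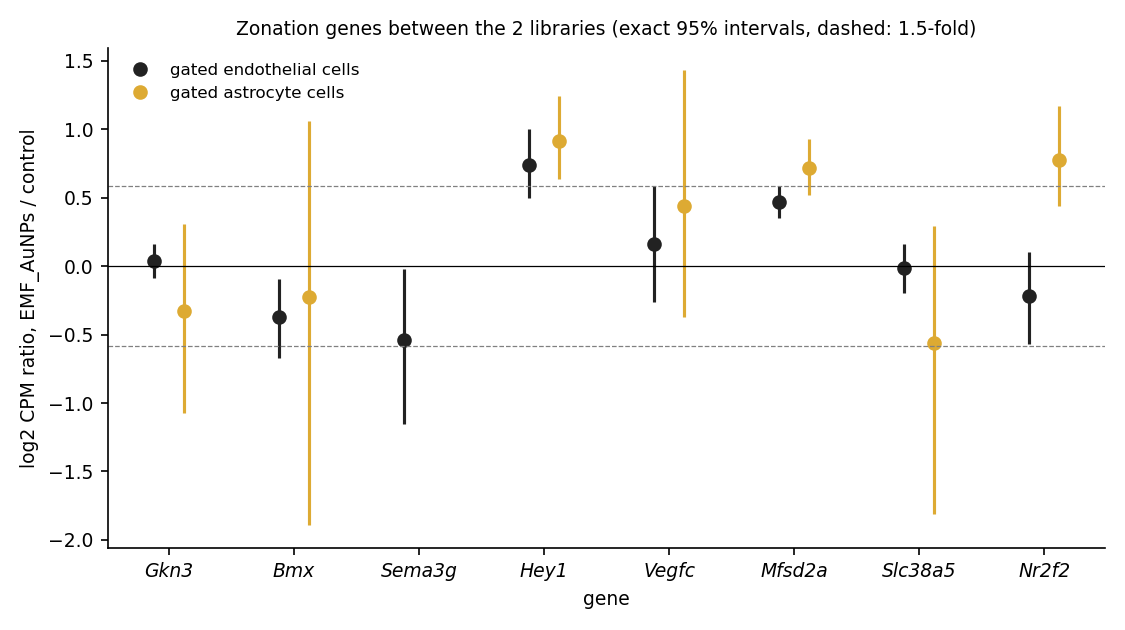
Log2 ratio of the CPM in EMF_AuNPs over control for each gene in gated endothelial cells (black) and, for genes with at least 20 UMIs there, gated astrocytes (yellow), with exact 95% intervals; dashed lines mark 1.5-fold. Hey1 lies at 0.74 in endothelial cells and 0.92 in astrocytes, and Mfsd2a at 0.47 and 0.72.

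Within single cells the arterial genes went together and kept apart from the venous Slc38a5, in both libraries. Co-detection is given as the number of thinned cells with a UMI of both genes beside the number that independent detection would give. Over the 10 pairs of arterial genes, 111 co-detections stood against 36.4 by independence in control cells and 62 against 20.5 in EMF_AuNPs cells. Of these pairs, 9 and 10 lay above independence, 6 in each library with an interval above 1, and without thinning all 10 did in both. Gkn3 and Bmx were found together in 40 cells against 9.72 (4.11 times, 2.94 to 5.60) in the control, and in 10 against 3.28 (3.05 times, 1.46 to 5.61). Gkn3 and Vegfc shared 15 cells against 2.68 (5.61 times, 3.14 to 9.25) and 13 against 2.12 (6.12 times, 3.26 to 10.5). The growth factor gene Vegfc thus had Gkn3 beside it in 15 of 30 and 13 of 24 of its cells, while Gkn3 was in 8.39% and 7.73% of the cells without Vegfc.

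Hey1 was found with the other arterial genes as well. It shared cells with Vegfc 3.85 times (1.25 to 8.98) and 3.19 times (1.17 to 6.93) as often as by independence. Gkn3 and Hey1 were found together 2.07 times (1.25 to 3.23) and 2.17 times (1.22 to 3.58) as often, and in 2 stricter gates, which left 830 and 124 control cells, the control ratio was 0.931 and 0. Bmx and Sema3g were the 1 arterial pair below independence in the thinned control cells, with 1 cell against 1.79, and had 3 cells against 0.409 in the EMF_AuNPs library. Sema3g and Vegfc, the genes in the fewest thinned control cells (39 and 30), shared 3 against 0.492. These counts are too small to rank the pairs.

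In thinned cells, arterial and venous genes were seldom seen together. Over the 10 arterial-venous pairs, 12 co-detections stood against 62.0 by independence in the control, and 8 against 26.3 in the EMF_AuNPs library. Without thinning the gap was smaller, with 175 against 239 and 73 against 136, and 5 of the 10 pairs lay above independence in the control. Of these, Vegfc with Nr2f2 (2.40 times, 1.40 to 3.84) and Hey1 with Nr2f2 (1.55 times, 1.00 to 2.28) had an interval above 1, and both pairs hold Nr2f2. Gkn3 and Slc38a5 shared 1 of 2377 control cells against 20.4 by independence, and 0 of 994 EMF_AuNPs cells against 8.06, where 0 allows up to 0.302% of cells. Hey1 and Slc38a5 shared 0 cells against 9.92, and 2 against 7.14. Nr2f2 was less clear-cut: with Gkn3 it shared 2 control cells against 6.24 and 1 EMF_AuNPs cell against 1.68, with Bmx 3 control cells against 3.21, and with Hey1 2 EMF_AuNPs cells against 1.49. The venous genes themselves shared 12 control cells (1.78 times independence, 0.92 to 3.11) and 6 EMF_AuNPs cells (3.45 times, 1.27 to 7.51). The latter ratio was 2.15 over all draws and 0.766 without the deepest 5% of cells. Mfsd2a stood between the ends: it was found with Gkn3 at 0.75 and 0.80 times independence and with Slc38a5 at 1.17 and 0.99 times, with intervals that include 1.

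**Figure D3:**
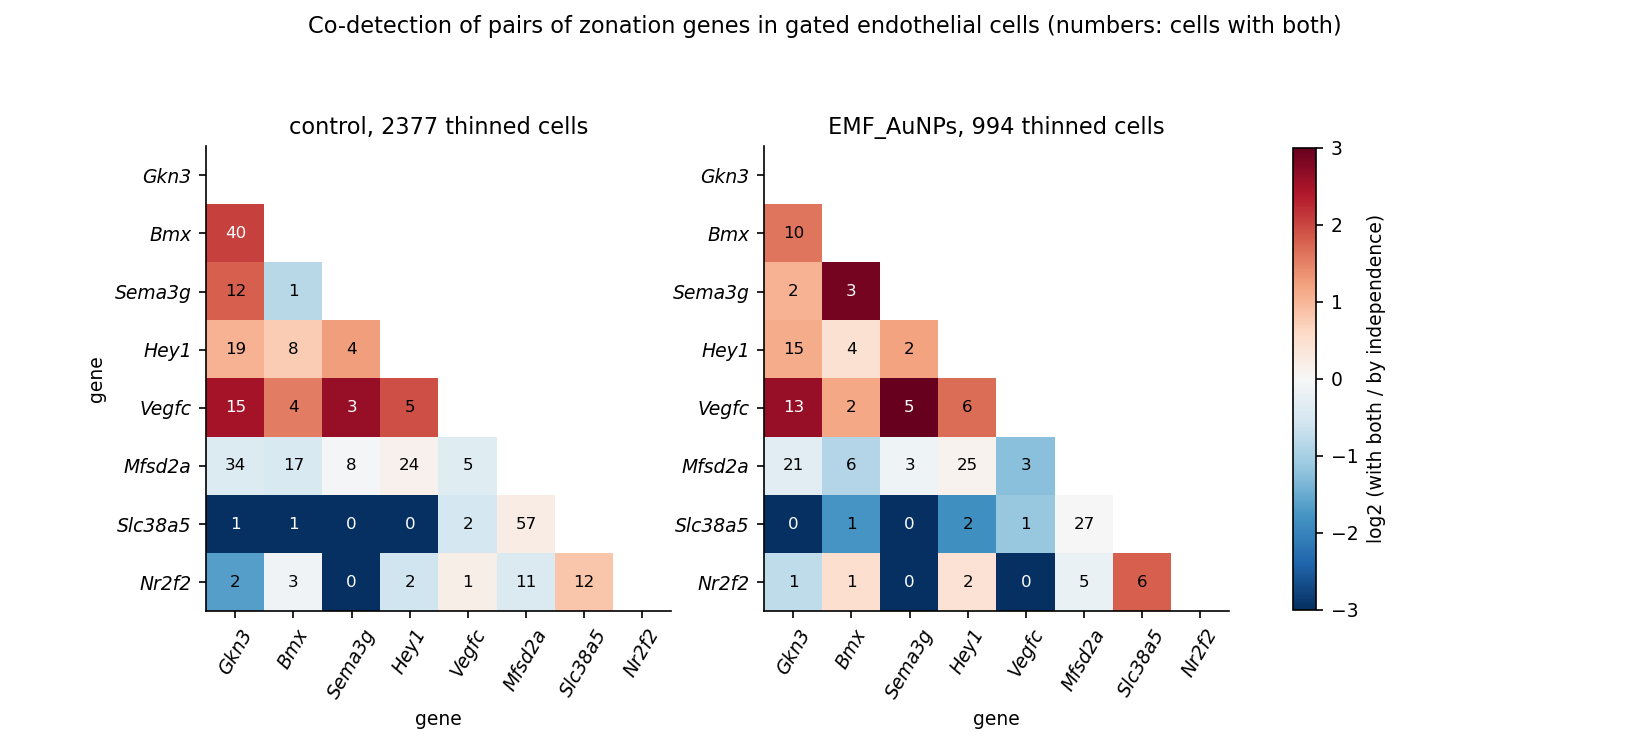
Log2 of the number of thinned cells with both genes of a pair over the number by independent detection (colour, cut off at -3 and 3, where 0 cells are drawn), for the 28 pairs in each library; the number in a square is the count of cells with both genes. The arterial pairs in the upper corner are red (40 and 10 cells for Gkn3 and Bmx), except Bmx with Sema3g in the control, which is blue. The squares of Gkn3 with Slc38a5 are dark blue (1 and 0 cells).

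The more arterial genes a cell held, the less often it held Slc38a5. In the thinned control cells, Slc38a5 was in 11.4% of 1981 cells with no arterial gene, in 1.28% of 312 with 1, and in 0 of 84 with 2 or more. In the EMF_AuNPs library it was in 10.8% of 808, 2.78% of 144 and 0 of 42 cells. Mfsd2a changed less along this count, from 21.9% over 18.3% to 19.4% of the control cells with 0, 1 and 2 arterial genes, and from 31.1% over 26.4% to 21.9% of the EMF_AuNPs cells, with overlapping intervals. Nr2f2 depended on the depth. In unthinned control cells with at least 3 arterial genes it was in 16.8%, against 6.29% of those with none, but the former had a median of 4093 UMIs and the latter of 1599, and in thinned control cells Nr2f2 was in none of the 84 with 2 or more arterial genes, beside 1 of 42 in the EMF_AuNPs library.

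**Figure D4:**
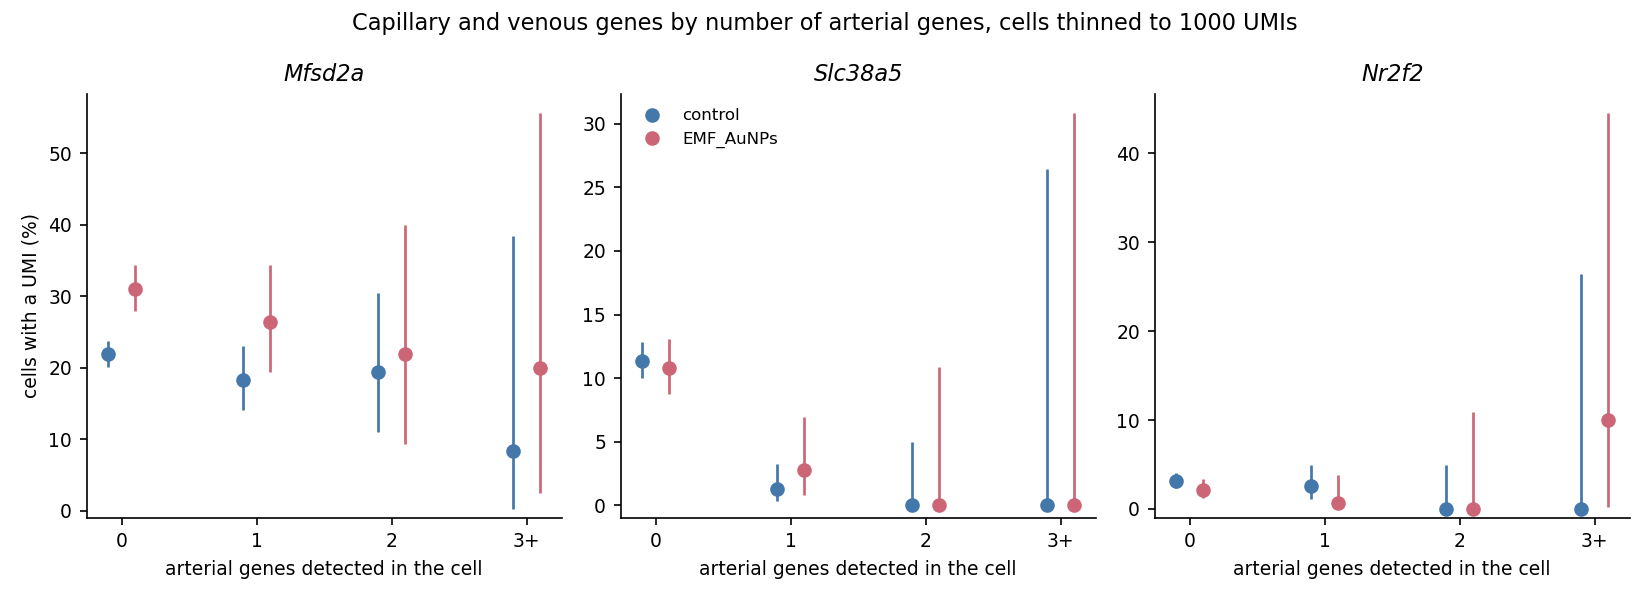
Share of thinned endothelial cells (percent, with 95% Clopper-Pearson intervals) that hold a UMI of Mfsd2a, Slc38a5 or Nr2f2, by the number of the 5 arterial genes detected in the cell, in the control (blue) and EMF_AuNPs (red) libraries. Slc38a5 goes from 11.4% and 10.8% with no arterial gene to 0 with 2 or more, while the intervals of Mfsd2a overlap.

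To see which other genes follow these zones, cells were classed by the 8 genes: arterial with at least 2 arterial genes, venous with both venous genes, and Mfsd2a only with Mfsd2a and none of the other 7. These classes are ranges cut from detected genes and not cell types. Arterial cells numbered 226 (8.31%) in control and 119 (11.5%) in EMF_AuNPs endothelium, venous cells 75 (2.76%) and 38 (3.69%), and Mfsd2a only cells 530 (19.5%) and 267 (25.9%). Cells with 2 arterial and both venous genes numbered 2 and 0. The arterial share was 3.23 points higher in the EMF_AuNPs library (1.12 to 5.55), but 0.69 points (-0.67 to 2.28) in thinned cells, so at equal depth a difference was not detectable. The share of Mfsd2a only cells was 6.41 points higher (3.41 to 9.53), and 6.54 points (3.64 to 9.58) in thinned cells. The classes differ in depth, with median UMIs of 3167.5 and 3775 in arterial, 5239 and 5964.5 in venous, and 1724 and 2288 in Mfsd2a only cells.

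Mgp led the genes that were higher in arterial than in Mfsd2a only cells. This gene of matrix Gla protein stood at 2423 CPM in control arterial cells against 113 CPM in Mfsd2a only cells, and at 2941 against 58.3 CPM in the EMF_AuNPs library. Fbln5, an elastic fibre protein, had 69 UMIs in control arterial cells and 0 in Mfsd2a only cells, and 81 against 1 in the EMF_AuNPs library. The control ratio was 30.2-fold with 3 counts in place of 0, and its exact interval began at log2 4.58. Cytl1, a secreted cytokine-like protein, had 52 against 0 UMIs (22.8-fold on the same reading, interval from log2 4.16) and 92 against 1. Also among the 8 highest by the lower ratio of both libraries were Col18a1, a basement membrane collagen (79.0 against 1.85 CPM and 85.6 against 2.91 CPM) and Nos1, a nitric oxide synthase (94.8 against 3.70 CPM and 91.3 against 5.83 CPM). They were followed by Gja4, a connexin of arterial endothelium (142 against 15.7 CPM and 122 against 4.37 CPM), Egfl8, and Eln, the elastin gene (94.8 against 10.2 CPM and 156 against 10.2 CPM).

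On a list of 20 other arterial genes, 18 had enough UMIs, and 16 of these were at least 1.5-fold higher in arterial than in Mfsd2a only cells in both libraries and 0 lower. Over all 7125 genes with enough UMIs, 3.09% were higher and 1.45% lower in both libraries. The list's median log2 ratio, with 10 CPM added to both sides, was 1.41 and 1.52 beside 0.03 and 0.01 for all genes, and Fbln5 and Cytl1 lie above it whether fitted or at their bound. The 2 that did not pass were Sox17 and Clu, at 0.56 and -0.15 in the control. Of 12 Notch pathway genes, 5 were higher and 0 lower: Notch3 (log2 2.12 and 2.70), which mural cells are known to express strongly, the ligands Jag1 (1.31 and 1.37), Dll4 (1.00 and 0.96) and Jag2 (0.87 and 0.66), and the endothelial receptor Notch4 (0.79 and 0.85). Notch1 stood at 0.57 and 0.70 and did not pass in the control. Jag1, Dll4 and Sox17 are on both this list and the arterial list, so the counts are not separate.

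Of 16 other capillary genes, 8 were at least 1.5-fold lower in arterial than in Mfsd2a only cells in both libraries, 1 was higher and 7 passed in neither direction. Slc16a1, a carrier of lactate and ketone bodies, had a log2 ratio of -1.60 and -1.77, Slc7a5, a large neutral amino acid carrier, -1.40 and -1.38, and Slc22a8, an organic anion carrier, -1.46 and -0.95, while Tgfb2 was higher (1.47 and 1.13). Among 18 barrier transporters, which share genes with the capillary list, 8 were lower and 9 passed in neither direction. The 8 lower ones include the transferrin receptor gene Tfrc (-1.54 and -1.71), and 1 was higher, the taurine carrier Slc6a6 (0.62 and 0.59). The efflux pump Abcb1a (-0.10 and 0.00) and the glucose carrier Slc2a1 (0.36 and 0.38) were among those that did not pass. Of 10 VEGF and semaphorin genes, 3 were lower: Sema6a (-0.78 and -1.24), Nrp1 (-0.61 and -0.75) and Kdr (-0.85 and -0.60). Of 10 other venous genes, 4 were lower, among them Car4 (-2.00 and -3.10), Tmsb10 (-2.43 and -1.93) and Flrt2 (-1.72 and -1.87, from 1 UMI in the arterial cells of each library), but 2 were higher, the adhesion molecule gene Vcam1 (2.12 and 1.89) and Vwf, von Willebrand factor (0.84 and 1.06).

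Markers of mural cells moved with the arterial class. The summed level of the 8 smooth muscle markers was 1204 and 590 CPM in arterial against 235 and 262 CPM in Mfsd2a only cells, with 7 of the 8 detected in arterial cells and Cnn1 at 0. Acta2 was higher in control arterial cells (118 against 17.6 CPM) but not in those of the EMF_AuNPs library (57.1 against 58.3 CPM). Tagln (113 against 9.26 CPM and 72.3 against 14.6 CPM) and Myh11 (97.2 against 10.2 CPM and 34.2 against 11.7 CPM) were higher in both. The sum of the 8 pericyte markers was 1240 and 860 CPM against 673 and 337 CPM. The neuron marker sum was also higher, at 822 and 759 CPM against 364 and 223 CPM, but this rested on Stmn2. Stmn2, also on the list of other arterial genes, stood at 637 and 645 CPM in arterial against 112 and 90.3 CPM in Mfsd2a only cells. Without it, the neuron sum was lower in arterial than in Mfsd2a only cells in both libraries. The part of other cell types in the differences, that of Notch3 included, was not tested.

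**Figure D5:**
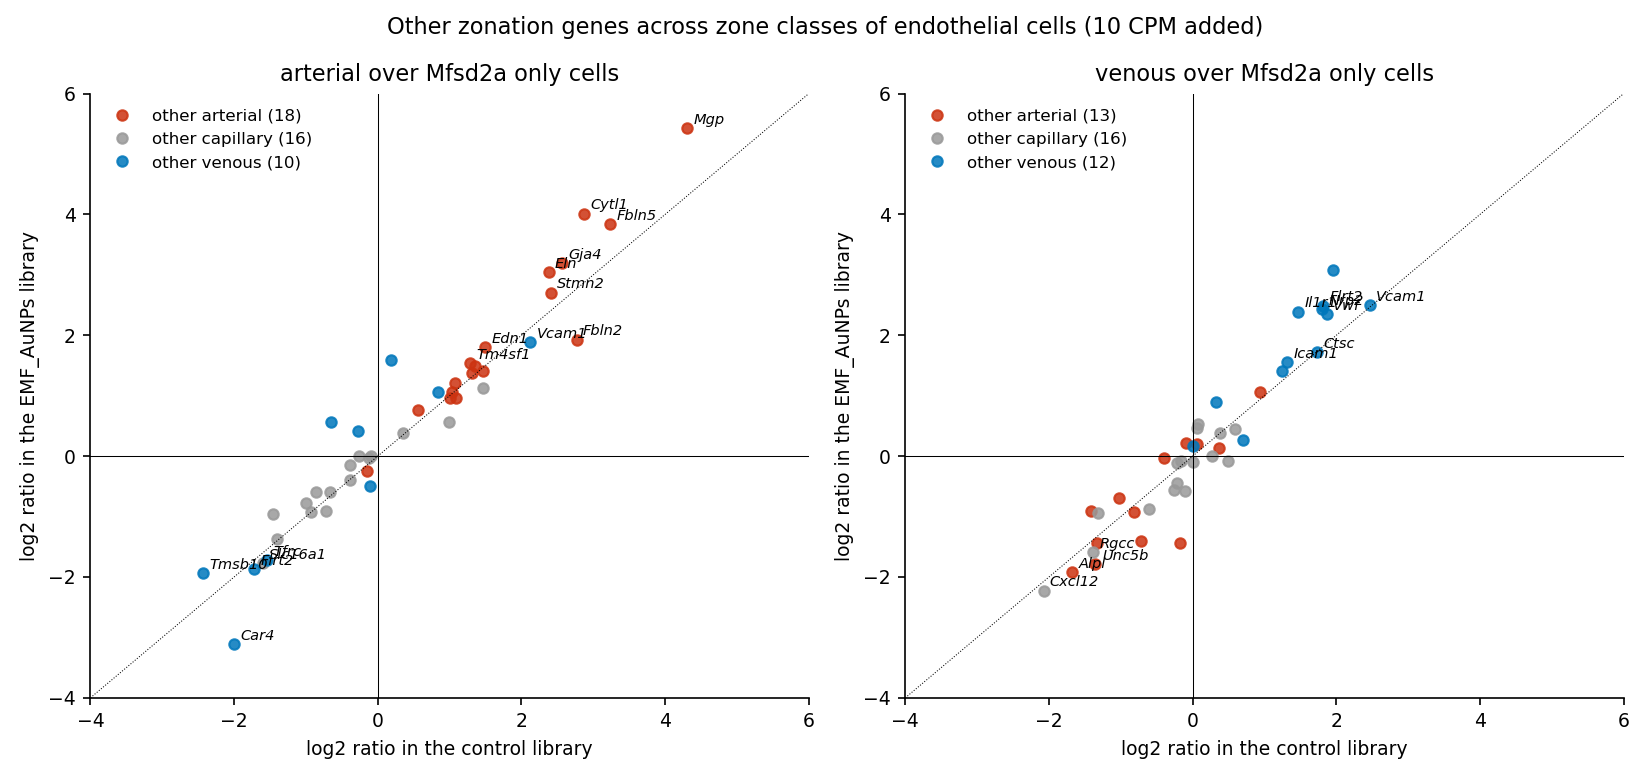
Log2 ratios (10 CPM added) of other arterial (red), capillary (grey) and venous (blue) genes in arterial cells (left) and venous cells (right) over Mfsd2a only cells, control on the horizontal and EMF_AuNPs on the vertical axis; the dotted line marks equal ratios. On the left Mgp is at 4.31 and 5.43 and Car4 at -2.00 and -3.10, and on the right Vcam1 is at 2.47 and 2.50 and Cxcl12 at -2.08 and -2.22.

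Venous cells were led by another set of genes. Cyp2e1, a cytochrome P450 enzyme, had 37 UMIs (83.4 CPM) in control venous cells against 3 (2.78 CPM) in Mfsd2a only cells, and 28 (108 CPM) against 3 (4.37 CPM) in the EMF_AuNPs library. Wnt5a, a secreted Wnt ligand, stood at 94.7 against 4.63 CPM and at 131 against 10.2 CPM. Vcam1 stood at 101 against 10.2 CPM and 219 against 30.6 CPM. Also among the highest were Myof, the early-response gene Egr1 (830 against 215 CPM and 769 against 156 CPM), Vwf and Flrt2. These classes are small, 75 and 38 cells, and the counts behind Cyp2e1, Wnt5a and Myof are below 50 UMIs in each library.

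On the list of other venous genes, 9 of 12 were at least 1.5-fold higher in venous than in Mfsd2a only cells in both libraries and 0 lower, against 2.35% higher and 2.49% lower of 6301 genes. They include Vwf (log2 1.87 and 2.35), the interleukin receptor gene Il1r1 (1.46 and 2.39, from 18 and 17 UMIs in venous cells), Icam1 (1.32 and 1.55) and the semaphorin and VEGF co-receptor Nrp2 (1.80 and 2.43), while Ephb4, Car4 and Tfrc did not pass. Of 13 other arterial genes, 7 were lower, with Alpl, alkaline phosphatase (-1.67 and -1.92), the netrin receptor gene Unc5b (-1.35 and -1.78) and Stmn2, also a neuron marker (-1.34 and -1.44), the lowest, and 1 was higher, Jag1 (0.94 and 1.06). Each of these 4 had at most 19 UMIs in the venous cells of a library. Jag1, Vcam1 and Vwf were thus at least 1.5-fold higher in both the arterial and the venous class than in Mfsd2a only cells. Of 16 other capillary genes, 4 were lower and 0 higher: the chemokine gene Cxcl12 (-2.08 and -2.22), Rgcc (-1.39 and -1.58), Tgfb2 (-1.31 and -0.95) and Glul (-0.61 and -0.88). Of 18 transporters, only Fabp5 was lower (-0.77 and -1.13) and 0 were higher, beside 8 lower in arterial cells, though whether the classes differ in this was not tested. Sema6a, lower in arterial cells, was higher in venous cells (0.75 and 0.64).

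Markers of other cell types moved with the venous class as well. The sum of the 8 pericyte markers was 1544 and 1053 CPM in venous cells against 673 and 337 CPM in Mfsd2a only cells, with all 8 detected. The sum of smooth muscle markers stood at 408 and 427 CPM against 235 and 262 CPM, with Cnn1 at 0 in the EMF_AuNPs venous cells. Its genes did not move alike. Acta2 was lower in venous cells (9.02 against 17.6 CPM and 11.5 against 58.3 CPM). Tagln was higher (15.8 against 9.26 CPM and 115 against 14.6 CPM). Myh11 stood at 11.3 against 10.2 CPM in the control and 3.84 against 11.7 CPM in the EMF_AuNPs library. Fibroblast markers stood at 127 against 8.74 CPM in the EMF_AuNPs library (33 and 6 UMIs), and at 27.1 against 20.4 CPM in the control. Red blood cell markers were lower, at 8042 and 8773 CPM against 16058 and 28257 CPM, and choroid plexus markers at 3889 and 2115 CPM against 8763 and 4642 CPM. Astrocyte markers, S1pr1 included, were also lower, at 1420 and 1988 CPM against 3055 and 3197 CPM. Nr2f2, which helps to define the venous class, is itself high in pericytes, so its endothelial UMIs and those of pericytes cannot be told apart here. The part of all these cell types in the venous values was not tested.

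Each gene was also taken alone, without the classes. The same UMIs in the same cells cut the classes, so a repeat of their genes is no independent support. Genes were ranked by the lower of both libraries' ratios of the level in positive over negative endothelial cells (10 CPM added), a measure of likeness over 2 libraries. For Gkn3, 129 of 4735 genes (2.72%) were at least 1.5-fold higher in both libraries, and the 4 most alike were Mgp, Fbln5, Cytl1 and Egfl8. Mgp stood at 1945 CPM in Gkn3-positive and 141 CPM in Gkn3-negative control cells, and at 2722 and 100.5 CPM in the EMF_AuNPs library. Mgp led for the other arterial genes too, with lower ratios of 8.82-fold for Bmx (3.08% of 3577 genes higher), 7.48-fold for Sema3g (3.35% of 1522), 14.0-fold for Vegfc (4.65% of 2473) and 3.86-fold for Hey1 (1.56% of 4803). After Mgp came Fbln5, Cytl1 and Col18a1 for Bmx, Fbln5, Nos1 and Cytl1 for Sema3g, and Fbln5, Cytl1 and Nos1 for Vegfc. For Hey1 they were Nos1, Col18a1 and Gja4, at 3.16-, 2.59- and 2.59-fold. The positive cells were deeper than the negative ones for each of the 8 genes, as for Vegfc in the EMF_AuNPs library (medians of 4601 and 2304 UMIs).

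Slc38a5 went with Cyp2e1, Wnt5a, Flrt2 and Tmsb10, and 0.84% of 5955 genes were higher with it. Tmsb10, an actin-binding peptide gene, stood at 3247 CPM in Slc38a5-positive and 1323 CPM in negative control cells, and at 3153 and 1063 CPM in the EMF_AuNPs library. Nr2f2 shared Wnt5a with Slc38a5 (3.10-fold by the lower ratio), and was otherwise led by Rgs4, a regulator of G-protein signalling (3.47-fold), Adap2 (3.06-fold) and the zinc finger factor gene Zic1 (2.70-fold), with 1.86% of 3719 genes higher. Before the 4 genes of Nr2f2, 4 gate markers of other cell classes were passed over. Mfsd2a had the fewest companions, 15 of 8324 genes (0.18%). The 4 most alike were Zic1 (1.77-fold), the extracellular superoxide dismutase gene Sod3 (1.74-fold), the sphingosine phosphate receptor gene S1pr3 (1.67-fold) and Adap2 (1.64-fold), of which Zic1 and Adap2 are shared with Nr2f2, and 2 gate markers of other classes were passed over.

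The other genes of the vessel zones differed between the libraries in both directions. Of 19 other arterial genes, 5 were at least 1.5-fold higher in EMF_AuNPs endothelial cells and 3 lower, with a median log2 ratio of 0.28 beside 0.07 for all genes. Cytl1 stood at 10.1 CPM in control and 33.7 CPM in EMF_AuNPs cells (log2 1.64, 1.26 to 2.21), Fbln5 at 14.2 and 32.4 CPM (1.13, 0.76 to 1.62), and the Notch ligands Dll4 at 27.8 and 53.4 CPM (0.92, 0.62 to 1.26) and Jag1 at 21.9 and 40.8 CPM (0.87, 0.53 to 1.26). Edn1, endothelin, was lower, at 401 and 231 CPM (-0.79, -0.92 to -0.67), as were Fbln2 (-0.75) and Heyl (-0.78), a relative of Hey1. Within arterial cells alone Cytl1 stood at 63.2 and 175 CPM and Fbln5 at 83.9 and 154 CPM. Of 16 Notch pathway genes, 4 were higher and 1 lower, and the 4 include the SOX factor gene Sox18 (0.88, 0.61 to 1.18) beside Dll4, Jag1 and Notch2 (0.60, -0.01 to 1.33). Dll4, Jag1, Sox17 and Heyl, the lower gene, are on the arterial list as well.

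The capillary list was split in the same way, with 3 of 16 higher and 3 lower. Cxcl12 was lower (3507 and 1961 CPM, log2 -0.84), with Spock2 (-0.84) and Kdr (-0.68), while Itm2a (0.61), the glucose carrier Slc2a1 (0.64) and Slco1a4 (0.60) were higher. Of 13 venous genes, 2 were higher, Vcam1 (0.79) and Ctsc (0.65), and 1 lower, Tfrc (-0.59). Each of these list counts stands beside the 11.3% higher and 6.86% lower of all genes.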

How the data were processed

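The authors deposited raw UMI counts, whole numbers for each gene and barcode, without normalisation. The submitters' processing notes name Cell Ranger 3.0.2, STAR and the build mm10. The annotation and STAR's version are not given there. Samples were grouped by their treatment label. The genes, lists and comparisons were chosen with earlier results of these data known.

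Cells needed 500 UMIs and 250 genes. The gate first planned (at least 3 of 8 markers of a class and fewer than 3 of any other) left 830 control and 47 EMF_AuNPs endothelial cells, and 3 astrocyte markers were detected in 3044 of 4595 and 1250 of 1532 cells with 3 endothelial markers. It was replaced, after seeing the data, by a gate on shares: class markers at least 0.5% of a cell's UMIs, at least 2 times the UMIs of each other class, and at least 3 markers detected, with S1pr1, Ttr, Hba-a2 and Hbb-bs left out. Doublets of unlike cells are limited by this gate, and those of 2 endothelial cells stay. The automatic Scrublet threshold (scanpy 1.11.5) marked 1 EMF_AuNPs cell, so scores cut at the expected rate, 5.60% there and 17.1% in the control, served as an alternative only.

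CPM are summed UMIs of a gene over all UMIs of the same cells. Log2 ratios had 1 CPM added between libraries and 10 CPM between cell classes. Intervals are Clopper-Pearson for shares, Newcombe for differences of shares, exact Poisson for CPM and co-detection, and exact conditional binomial for ratios. These last have nothing added, so they need not be centred on the ratio. A count of 0 allows 3 counts. A ratio past 1.5-fold is called higher or lower, between classes when both libraries pass. Comparisons between classes used genes with at least 20 UMIs over both classes in each library. The 8 highest of a class needed 20 in that class alone, list genes did not. Named were all 8 genes, the 4 genes most alike each, the 8 highest of each zone class (1 venous gene is not reported here) and up to 3 per list and direction. List genes named beyond these, and those named between the libraries, were chosen after their values were seen. The scripts were tested on simulated data. Promoter windows and motifs come from RefSeq (GRCm38.p6).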

Additional observations from a re-analysis of the deposited data

How the results depend on the processing

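No paired analysis was possible because each group has 1 library. Of 598 values under the alternatives, 545 stayed in place, 46 moved and 7 turned their direction. The share-based gate and its settings, the doublet scores and the mean over all draws were chosen after seeing the data. The Hey1 log2 ratio between libraries stayed between 0.65 and 0.75 and that of Mfsd2a between 0.39 and 0.49.

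All 46 values that moved and the 7 that turned are as follows, and the cause was not tested unless named. With 4 gate markers, Gkn3 with Slc38a5 in the control was at 0 times independence and Slc38a5 with Nr2f2 in EMF_AuNPs at 1.01. Under the planned gate with no limit on other markers, the Vegfc share difference turned to -0.0614 points, that of Mfsd2a was 4.40 points, the Gkn3 log2 ratio 0.21 and control Gkn3 with Bmx 6.05. Under the planned gate with fewer than 2 other markers, 124 control cells and 1 EMF_AuNPs cell remained, and in the control Gkn3 with Hey1 turned to 0, as Gkn3 with Slc38a5, Slc38a5 with Nr2f2 and Gkn3 with Mfsd2a went to 0. The control shares there were 2.42% arterial (8.31% as reported), 0 venous (2.76%) and 21.8% Mfsd2a only (19.5%). With fewer than 3, Gkn3 with Hey1 in the control turned to 0.931, Gkn3 with Slc38a5 went to 0, and the control shares were 2.41% arterial and 0.602% venous. Without the deepest 5% of cells, the venous shares were 1.51% in the control and 2.35% in EMF_AuNPs, where Slc38a5 with Nr2f2 turned to 0.766. Without Flt1 and Ly6c1 in the gate, control Gkn3 with Hey1 was 3.41 and the control venous share 3.50%. With marker UMIs 1 time those of other classes, the Vegfc difference turned to -0.116 points and Slc38a5 with Nr2f2 in EMF_AuNPs was 1.20. With 3 times, control Gkn3 with Slc38a5 was 0.326. With markers at least 0.75% of UMIs, the Vegfc difference was 0.124 points.

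Thinned to 500 UMIs, the Vegfc difference turned to -0.264 points, Mfsd2a was at 4.21 points, Gkn3 with Vegfc in EMF_AuNPs at 2.68, Slc38a5 with Nr2f2 in the control at 0 and Gkn3 with Mfsd2a in EMF_AuNPs at 0.398. Thinned to 2000 UMIs, the differences were -2.32 points for Bmx, -2.28 for Sema3g, 5.76 for Hey1, -1.15 for Vegfc (turned), -3.22 for Slc38a5 and -3.34 for Nr2f2. Not thinned, they were 8.33 for Hey1, 17.3 for Mfsd2a and 3.68 for Slc38a5. With zone classes from thinned cells, where fewer genes are detected, the arterial shares were 3.53% and 4.23%, 0.691 points apart, the venous 0.505% and 0.604%, and the Mfsd2a only 15.7% and 22.2%. Arterial shares with 3 of 5 arterial genes were 3.68% and 5.63%, and with 2 of 4 without Hey1 6.91% and 8.05%. At 2-fold in place of 1.5-fold, 2 capillary genes were lower in arterial and 2 in venous cells. Depth limits pairs of rare genes. Gates that left under 50 cells in a library gave no comparison of the libraries.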

Other observations

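Cells in which none of the 8 zonation genes was detected numbered 1088 (40.0%) of the control and 274 (26.6%) of the EMF_AuNPs endothelial cells, and 1332 (56.0%) of 2377 and 489 (49.2%) of 994 when thinned. In these cells Plvap, a protein of the diaphragms of fenestrated vessels, stood at 24.4 CPM (42 UMIs) in the control and 60.4 CPM (35 UMIs) in the EMF_AuNPs library, against 5.56 CPM (6 UMIs) and 1.46 CPM (1 UMI) in Mfsd2a only cells. Choroid plexus markers were also higher there, at 11612 and 6496 CPM against 8763 and 4642 CPM, and their part was not tested. Of 7 genes of tip and fenestrated endothelium with enough UMIs, 2 were at least 1.5-fold higher in the EMF_AuNPs library and 0 lower, beside 11.3% higher and 6.86% lower of all genes. They were Adm, adrenomedullin, at 10.5 and 34.3 CPM (log2 1.62, 1.25 to 2.18), and Ramp3, part of its receptor, at 22.4 and 36.6 CPM (0.68, 0.33 to 1.08).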
